A study of Mus musculus with 6 samples.

Results

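The 7 genes Egfr, Nras, Hras, Braf, Map2k1, Mapk3 and Dusp6 code for proteins of the EGFR, RAS and MAPK pathway, and were taken as the rows with those symbols among the 55367 gene symbols of each library. All 7 were found in every library. The libraries are RNA-seq of acinar cells, which make the digestive enzymes of the exocrine pancreas, from mice, and the stated purpose of the series was to describe their expression pattern. There was 1 group of 6 replicates, all from untreated mice of the genotype Pdx1-Cre; Klf5-mCherry-CreERT2. Pdx1-Cre expresses the Cre recombinase from the promoter of Pdx1, which is active in the progenitors of acinar, duct and islet cells alike, and Klf5-mCherry-CreERT2 is, by its name, a marked allele of the transcription factor gene Klf5. Each library was made from 300 cells sorted for GFP, although no GFP reporter is named in the genotype. The age of the mice is not given in the sources used here, and neither is whether each library had an animal of its own. P-values therefore describe only how these samples vary, which may be technical. A number in the library names, of unstated meaning, separates replicates 4 to 6, called set B, from replicates 1 to 3, called set A.

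In this pathway, ligands such as EGF and TGF-alpha bind the receptor tyrosine kinase EGFR at the cell surface. Adaptor proteins then bring in exchange factors, which load small GTPases of the RAS family, HRAS and NRAS among them, with GTP. Active RAS recruits RAF kinases, BRAF among them, which phosphorylate the MEK kinases (MAP2K1 and MAP2K2), and these phosphorylate the ERK kinases, of which MAPK3 is ERK1. The phosphatase DUSP6 dephosphorylates ERK in the cytoplasm and is itself made in response to ERK activity, which makes its transcript a common readout of the pathway. In the mouse pancreas, EGFR and RAS signalling are known for their part in the conversion of acinar cells to duct-like cells and in tumour formation. Transcript levels do not measure the activity of kinases or GTPases.

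The promoters of 3 of the genes are shown, in RefSeq sequence of build GRCm38.p6 (mm10), because these genes mark the extremes of what follows: Hras stood farthest above background, Egfr had the most counts but fell to background in 1 library, and Dusp6 had the fewest counts. Each run covers 250 bases before the annotated gene start and 50 after it, and capitals mark GGGCGG on either strand, the core of the GC box.

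Hras, chr7:141193955-141194254, minus strand: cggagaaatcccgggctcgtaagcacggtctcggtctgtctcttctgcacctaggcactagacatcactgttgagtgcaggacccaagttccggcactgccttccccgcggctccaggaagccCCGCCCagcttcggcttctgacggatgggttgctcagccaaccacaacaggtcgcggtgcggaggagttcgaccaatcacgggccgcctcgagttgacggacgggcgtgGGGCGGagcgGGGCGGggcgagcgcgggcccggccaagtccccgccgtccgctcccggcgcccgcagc

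Egfr, chr11:16751953-16752252, plus strand: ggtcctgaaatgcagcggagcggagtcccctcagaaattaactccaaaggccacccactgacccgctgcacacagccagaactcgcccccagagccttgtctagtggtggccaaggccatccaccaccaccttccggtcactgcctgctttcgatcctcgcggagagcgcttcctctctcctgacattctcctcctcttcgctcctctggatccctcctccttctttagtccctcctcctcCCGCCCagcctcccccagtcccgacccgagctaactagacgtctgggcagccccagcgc

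Dusp6, chr10:99262981-99263280, plus strand: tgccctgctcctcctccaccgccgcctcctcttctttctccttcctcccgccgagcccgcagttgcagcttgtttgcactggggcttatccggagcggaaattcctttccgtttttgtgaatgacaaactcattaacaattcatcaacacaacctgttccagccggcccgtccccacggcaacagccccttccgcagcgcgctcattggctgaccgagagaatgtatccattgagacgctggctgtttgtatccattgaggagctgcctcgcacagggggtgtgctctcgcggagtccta

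Promoter sequences were matched for 6 of the 7 genes, Mapk3 being the exception. GGGCGG was found in 5 of the 6, namely 3 times in Hras, 3 times in Nras, 4 times in Map2k1 and once each in Egfr and Braf, and it occurred in 35.7% of all 32851 promoters of the same length. CCGGAA, a core of ETS factor sites, was found in Egfr, Hras and Map2k1 and in 14.9% of all promoters. TATAAA was in none of the 6 and in 13.6% of all promoters. The Hras window was 69% G and C, the Egfr window 62.3% and the Dusp6 window 57.3%, against a median of 52.7% over all promoters. These matches describe the letters of the windows only.

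Total counts per library were 4670819 to 7072270, of which ribosomal RNA took 38.1% to 60.9% and listed digestive enzyme genes 12.3% to 46.3%. All 6 acinar markers, among them Ptf1a, Rbpjl and Bhlha15, exceeded 3 times background in every library. The same held for 5 of 8 ductal, 1 of 8 islet, 0 of 10 stromal and endothelial, 1 of 7 immune and 1 of 6 proliferation markers. Background was measured in each library as the counts per Mb over the spans of 1408 olfactory receptor genes, which acinar cells are not known to transcribe (8.18 Mb in all), and multiplied by the span of each gene. This matters because the lengths deposited with the counts are those of whole gene spans, introns included. Silent genes do not measure the unspliced RNA of expressed genes, which is not part of this background. Background was 24.9 to 118 counts per Mb in 5 libraries and 347 in replicate 5 (exact Poisson 95% interval 335 to 360), so replicate 5 stood apart. The numbers of genes over background and the background shares of the 7 genes are given with and without it. Mean levels in TPM include all 6 libraries. Intervals and floors cover counting error only, and no counts in a library would be compatible with up to 3, which is 0.424 to 0.642 CPM, that is, scaled by total counts.

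All 7 genes exceeded 3 times their expected background in each of the 5 libraries other than replicate 5, but only Hras and Dusp6 did so in all 6. Among 21949 protein-coding genes, 11.4% met this rule in all 6 libraries and 31% met it in the 5 without replicate 5. The number of the 7 genes that met it was 2 when any library except replicate 5 was left out. Summed over the 7 genes, 171 to 287 counts per library were found in 5 libraries, of which 4.24% to 15.7% were expected as background. In replicate 5 there were 162 counts against 132 expected, or 81.7%.

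Expected background grows with the gene span by its definition, and its share of the counts was larger in the long genes. Egfr, Braf and Map2k1, with spans of 166, 122.2 and 67.9 kb, held expected background equal to 23.7%, 27.3% and 21.5% of their counts. For the 4 genes under 10 kb the share was 1.77% for Hras, 3.29% for Mapk3, 5.52% for Dusp6 and 5.75% for Nras. Without replicate 5 the 3 long genes came to 11.5%, 14.6% and 10.8%, and the 4 short genes to 0.838% to 2.79%.

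**Figure D1:**
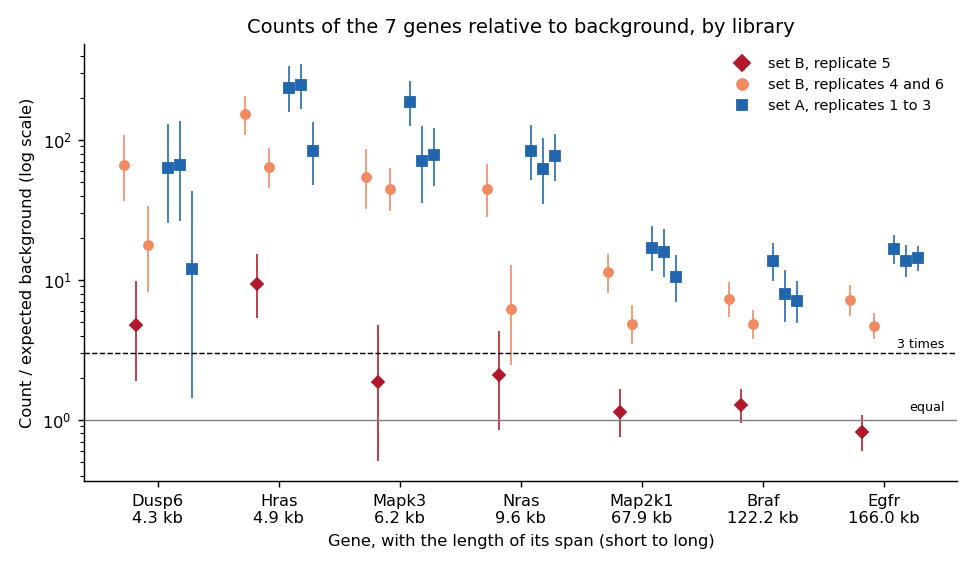
Count divided by expected background (log scale) for each of the 7 genes in each library, genes ordered by span length from Dusp6 at 4.3 kb to Egfr at 166.0 kb, with exact Poisson 95% intervals of the count. The dashed line marks 3 times background; replicate 5, drawn as diamonds, lies below it for Mapk3, Nras, Map2k1, Braf and Egfr.

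Egfr, the receptor gene (chr11:16752203-16918158, plus strand), had the most counts of the 7. Its counts ranged from 47 to 94 per library with a median of 68. Its level was 1.86 ± 0.385 TPM (counts divided by exon length and scaled to the same sum in every library; SD, n = 6), a coefficient of variation of 20.7% as counted and 53.4% after background subtraction. In replicate 5, however, Egfr had 47 counts against 57.6 expected from background, a ratio of 0.816 (0.599 to 1.08), so a level above background was not detectable in that library. The ratio was 4.70 to 16.7 in the other 5 libraries. After subtraction of background its level was 1.36 ± 0.727 TPM. The antisense gene Egfros lies within the Egfr span and overlaps none of its exons. The strand setting is not stated, so how reads in that overlap were assigned is not known. Most protein-coding genes with 95% or more of their exons inside other genes (88.7%) had no counts, so such reads may be missing from the Egfr count.

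Of the RAS genes, Hras was above Nras in 5 of 6 libraries, replicate 3 being the exception. By the exact test described below, Nras minus Hras was -0.76 ± 0.55 log2 units and did not pass (exact p = 0.0625, adjusted exact p = 0.106). Hras (chr7:141189105-141194005, minus strand) had 16 to 40 counts with a median of 30, and 2.24 ± 0.746 TPM (SD, n = 6). Even in replicate 5 its 16 counts were 9.40 times background (5.37 to 15.3), and it lay at 64 to 245 times background in the others. Nras (chr3:103058285-103067914, plus strand) had 7 to 29 counts with a median of 18, and 0.91 ± 0.398 TPM. Replicates 5 and 6 were the low ones for Nras, with 7 counts each, at 2.09 (0.842 to 4.31) and 6.16 times background. No other gene overlaps either of them in GENCODE M21.

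Braf, the RAF kinase gene (chr6:39603237-39725463, minus strand), had 24 to 70 counts with a median of 45.5 and 1.03 ± 0.515 TPM (SD, n = 6). It was the second of the 7 by counts and the fifth by level, since its exons add up to 13862 bp, the longest of the 7. Its 54 counts in replicate 5 were 1.27 times background (0.956 to 1.66). After subtraction its level was 0.692 ± 0.296 TPM.

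Map2k1, which codes for the kinase MEK1 (chr9:64185770-64253631, minus strand), had the highest mean of the 7 in TPM by exon length as counted, at 2.88 ± 0.758 (SD, n = 6). Its counts ranged from 27 to 41 with a median of 29. The 27 counts in replicate 5 compare with 23.6 expected, a ratio of 1.15 (0.755 to 1.67), although its TPM was highest there at 3.71. After subtraction the mean was 2.10 ± 0.938 TPM and replicate 5 became the lowest library at 0.494 TPM. Mapk3, which codes for ERK1 (chr7:126759601-126765819, plus strand), had 4 to 33 counts with a median of 18.5 and 2.36 ± 1.21 TPM. Its lowest value was again in replicate 5, where 4 counts were 1.85 times background (0.505 to 4.74), and its highest, 4.29 TPM, in replicate 6.

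Dusp6, the ERK phosphatase gene (chr10:99263231-99267489, plus strand), had the fewest counts of the 7, 2 to 15 with a median of 7, and 0.775 ± 0.432 TPM (SD, n = 6). That is the lowest mean by exon length as counted; after background subtraction Braf was lower, at 0.692 TPM against 0.730 TPM of Dusp6, and by whole spans Dusp6 was number 3 of the 7. It was measured in few counts, at 4.73 times background (1.90 to 9.75) in replicate 5 to 65.9 times in replicate 4. Replicate 3 had only 2 counts, 11.9 times background (1.44 to 43.1). In replicates 3 and 5 the interval thus reached below 3 times background. Its coefficient of variation was 55.7% as counted and 56.7% after subtraction, beside 51.1% and 57.6% for Mapk3 and 33.3% and 34.1% for Hras.

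**Figure D2:**
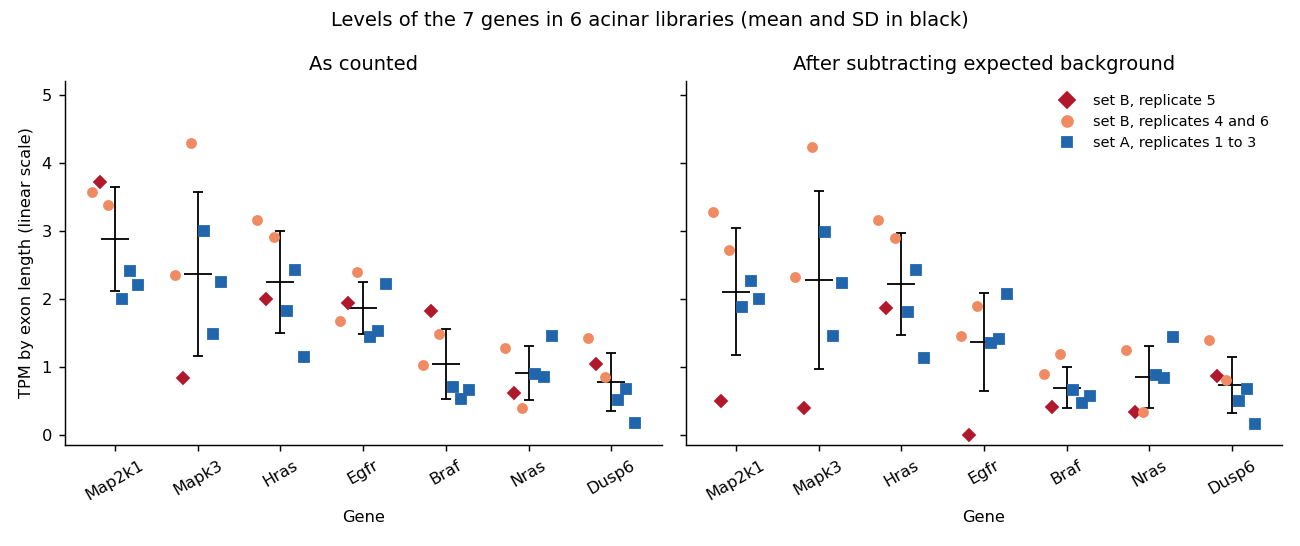
TPM by exon length (linear scale) of the 7 genes in each of the 6 libraries, as counted (left) and after expected background was subtracted (right), with mean and SD over 6 libraries in black. Subtraction moves replicate 5 from 3.71 to 0.494 TPM for Map2k1 and from 1.93 to 0 TPM for Egfr, and Map2k1 in replicate 6 from 3.38 to 2.71 TPM.

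The order of mean levels was Map2k1, Mapk3, Hras, Egfr, Braf, Nras and Dusp6, from 2.88 to 0.775 TPM, with a median of 1.86 TPM against 0.491 TPM over all protein-coding genes. Map2k1 lay above 88.7% of protein-coding genes and Dusp6 above 61.3%. Neighbours in this order were tested within libraries on log2(TPM + 1) by a two-sided exact test that flips the signs of the differences, as part of 34 pairs adjusted together by Benjamini-Hochberg. Map2k1 exceeded Mapk3 by 0.26 ± 0.65 in 3 of 6 libraries (exact p = 0.375, adjusted exact p = 0.472). Hras minus Mapk3 was -0.01 ± 0.57, with Hras higher in 3 of 6 (exact p = 0.969). Egfr minus Hras was -0.16 ± 0.42, with Egfr lower in 5 of 6 (exact p = 0.344). Egfr exceeded Braf by 0.52 ± 0.31 in 6 of 6 as counted (exact p = 0.031, adjusted exact p = 0.071), but in 5 of 6 after background subtraction, replicate 5 then having 0 TPM of Egfr and 0.407 of Braf. Nras minus Braf was -0.08 ± 0.59 (exact p = 0.812), and Nras minus Dusp6 0.12 ± 0.54 (exact p = 0.719). None of these differences between neighbours passed after adjustment.

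Egfr and Braf included, 9 of the 21 pairs among the 7 genes had 1 direction in all 6 libraries as counted. After background subtraction 5 of these 9 did, and Egfr over Nras, Braf and Dusp6 and Map2k1 over Dusp6 turned in replicate 5. As counted, the 9 pairs include, besides Egfr over Braf, Map2k1 over Dusp6 by 1.14 ± 0.20 log2 units, Hras over Dusp6 by 0.87 ± 0.19 and Braf below Map2k1 by -0.94 ± 0.19. Hras exceeded Braf by 0.68 ± 0.40 and Egfr exceeded Dusp6 by 0.71 ± 0.44. Nras lay below Map2k1 by -1.02 ± 0.50 and below Mapk3 by -0.76 ± 0.65, and Egfr lay above Nras by 0.60 ± 0.40. With 6 libraries the smallest possible exact p is 0.031, every pair with 1 direction reached it, and none of the 34 passed after adjustment, the smallest adjusted exact p being 0.071. The length taken for each gene decides part of this order. With whole spans in place of exons, Hras came first at 2.47 ± 0.720 TPM and Mapk3 second at 1.28 ± 0.639, while Egfr and Braf came last at 0.185 and 0.161 TPM. Of the 9 pairs, 4 then changed sign: Map2k1 minus Dusp6 was -0.55, Egfr minus Dusp6 -0.57, Egfr minus Nras -0.55 and Nras minus Map2k1 0.52. Hras and Mapk3 were among the highest 3 on both scales and after background subtraction, where Mapk3 led at 2.27 ± 1.31 TPM.

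Braf, Map2k1 and Dusp6 were also set against relatives of the same family. Braf lay below Araf, a RAF kinase gene of 2.45 ± 0.570 TPM, by -0.78 ± 0.25 log2 units in 6 of 6 libraries. Map2k1 minus Map2k2, the MEK2 gene at 4.76 ± 1.37 TPM, was -0.55 ± 0.59 as counted, lower in 5 of 6 (exact p = 0.094), with replicate 5 the exception. After background subtraction it was -0.85 and lower in 6 of 6, with -0.83 in replicate 5. By whole spans it was -0.99, also lower in 6 of 6. Dusp6 exceeded Dusp4 by 0.42 ± 0.22 and Dusp9 by 0.73 ± 0.35, in 6 of 6 each. Its differences from Dusp5 (0.12 ± 0.37) and Dusp7 (-0.04 ± 0.33) were smaller than their spread. The differences of Braf from Araf and of Dusp6 from Dusp4 and Dusp9 each had an adjusted exact p of 0.071.

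Within its receptor family Egfr had the highest mean after background subtraction, at 1.36 ± 0.727 TPM. It exceeded Erbb2 (0.557 ± 0.399 TPM) by 0.90 ± 0.29 log2 units and Erbb3 (1.07 ± 0.154 TPM) by 0.46 ± 0.26, each in 6 of 6 libraries as counted (adjusted exact p = 0.071). After background subtraction it exceeded each in 5 of 6, since replicate 5 then had 0 TPM of Egfr, 0.490 of Erbb2 and 0.431 of Erbb3. By whole spans, Egfr minus Erbb3 was -0.27. Erbb4, which codes for a neuregulin receptor, had a higher mean than Egfr, at 3.22 ± 4.43 TPM, and its values ran from 0.493 TPM in replicate 1 to 12.1 TPM in replicate 5. Its gene span is over 1 Mb, and its counts were 0.859 to 1.82 times background in every library, with expected background equal to 103% of all its counts. Egfr minus Erbb4 was -0.12 ± 1.05 as counted and 0.97 after background subtraction.

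**Figure D3:**
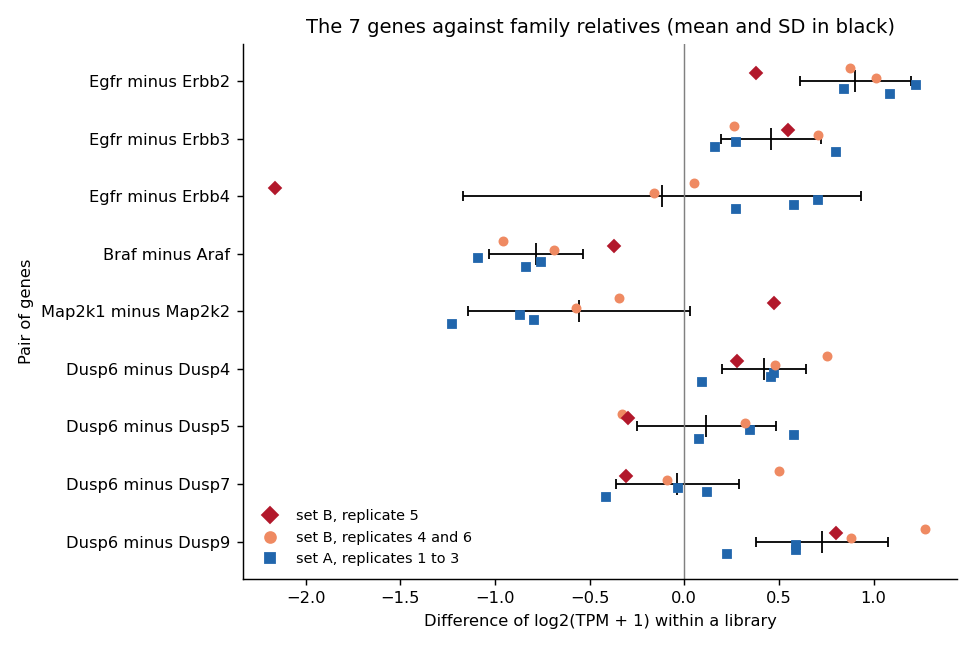
Difference of log2(TPM + 1) within each library between 1 of the 7 genes and a family relative, for 9 pairs, with mean and SD over 6 libraries in black and 0 marked by the grey line. All points lie on 1 side of 0 for Egfr minus Erbb2, Egfr minus Erbb3, Braf minus Araf, Dusp6 minus Dusp4 and Dusp6 minus Dusp9; the diamond of replicate 5 is far from the rest for Egfr minus Erbb4, at -2.16.

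The wider pathway was described with 71 genes in 9 role lists, which include the 7. Of these, 11 exceeded 3 times background in all 6 libraries, and 38 did so when replicate 5 was left out, against the 11.4% and 31% of protein-coding genes given above. The 11 were Shc1, Hras, Lamtor3, Pebp1, Dusp6, Dusp7, Errfi1, Egr1, Fos, Myc and Ier3. Of the 71 genes, 41 averaged at least 1 TPM, and 32 of those 41 did not meet the background rule in all libraries. Among all 21949 protein-coding genes, 7073 averaged at least 1 TPM, and 2295 of those met the rule, against 9 of the 41.

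By role, 0 of 9 ligand genes met the rule in all 6 libraries and 4 met it in exactly 5. Egf had 1.86 ± 0.114 TPM (SD, n = 6), as counted the smallest relative spread of the ligands named, and Areg 1.60 ± 2.08. After background subtraction Egf had 1.60 ± 0.467 TPM, and in replicate 5 its 43 counts were 1.59 times background. Nrg1 had 3.93 ± 6.02 TPM but counts of 0.734 to 1.31 times background, and Ereg, with 7 counts in all, was the lowest at 0.104 TPM. Of the 8 adaptor and exchange factor genes 1 met the rule in all libraries, the adaptor gene Shc1 at 1.32 ± 0.402 TPM. Grb2, the adaptor that brings the exchange factor SOS to the receptor, had 3.54 ± 2.02, Gab1 2.89 ± 0.725 and the phosphatase gene Ptpn11 1.98 ± 1.01 TPM. Rasgrp1, an exchange factor best known from lymphocytes, was at background with 93.6% of its counts expected. Among 6 RAS genes Rras2 was highest at 4.07 ± 1.06 TPM and Mras lowest at 0.703 ± 0.994, and Hras was the 1 that met the rule in all libraries.

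Of the 6 genes for GTPase-activating proteins, which switch RAS off, 0 met the rule in all libraries. Rasa1 had 1.42 ± 0.966, Rasal2 1.39 ± 1.31, Dab2ip 1.37 ± 1.43 and Rasa2 0.567 ± 0.266 TPM. Expected background equalled 24.1%, 50.7%, 53.1% and 33.3% of their counts, in the same order. In the list of RAF kinases and scaffolds 2 of 7 met it, Lamtor3, a scaffold of MEK1 on endosomes, at 1.59 ± 0.265 TPM and Pebp1, which codes for the RAF inhibitor protein RKIP, at 8.11 ± 2.39. Ksr1 was lowest there at 0.895 ± 1.24 TPM, with 79.4% of its counts expected as background. Among the MEK and ERK kinase genes, Map2k1, Map2k2 and Mapk3 met the rule in exactly 5 libraries.

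Fos, Errfi1 and Egr1 had the highest means of the 71 genes. Errfi1 (Mig6), a feedback inhibitor that binds EGFR, had 14.6 ± 4.74 TPM and stood at 12.1 to 549 times background. Spred2 had 3.26 ± 1.20 and Lrig1, another negative regulator of EGFR, 2.39 ± 0.596 TPM, whereas Dusp9 had 2 counts in all libraries together. Among 14 ERK substrate and target genes Fos had 36.8 ± 10.9, Egr1 11 ± 3.28 and Myc 7.16 ± 2.18 TPM, and Fosl1 was lowest at 0.159 ± 0.134. Dusp6, the target among the 7, thus lay far below Fos and Egr1 in the same libraries.

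**Figure D4:**
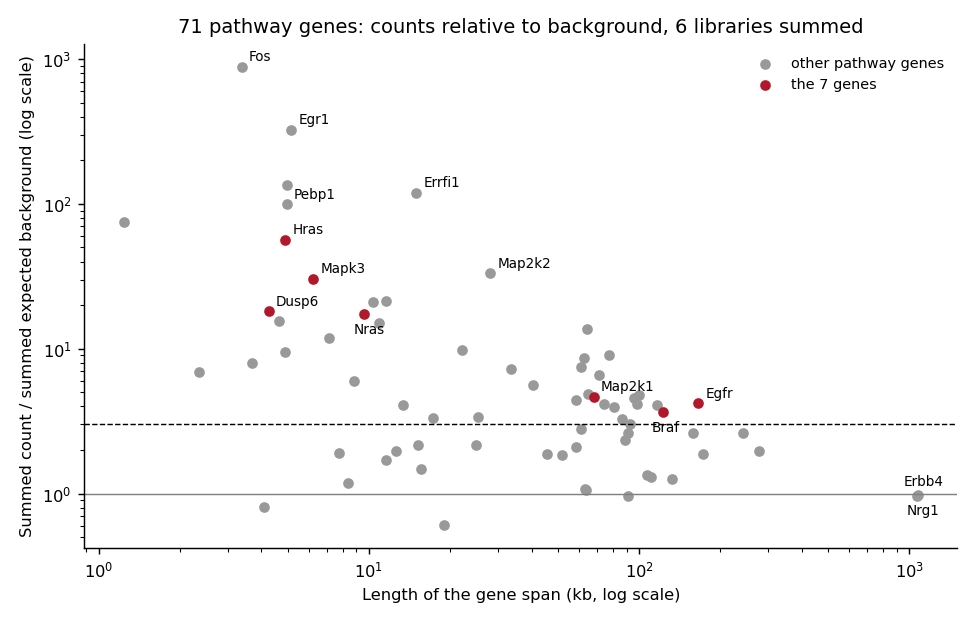
Summed count over summed expected background of 6 libraries (log scale) against the length of the gene span in kb (log scale) for 71 pathway genes, the 7 genes in red. Erbb4 and Nrg1, the longest, lie at the grey line where counts equal background, Egfr, Braf and Map2k1 at 4.22, 3.67 and 4.65 times, and Hras at 56.6 times.

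Set B was set against set A because the number in the names may mark a batch; the labels do not otherwise differ. By edgeR's quasi-likelihood test over 8723 genes, none of the 6 genes that passed its filter on low counts was called, and Dusp6 did not pass it. Of these 8723 genes, 0.0115% were called higher and 0% lower in set B, with 2291 at an unadjusted p under 0.05. With library sizes outside ribosomal RNA and without TMM, the scaling of the first fit, Braf was called, at 1.38 (SE 0.31, edgeR adjusted p = 0.045). That alternative called 1824 of 8508 genes, 1783 of them higher and 41 lower in set B. In the first fit, Braf had the largest positive difference of the 6, 0.67 (SE 0.29) log2 units (edgeR adjusted p = 0.18). Nras had the largest negative one there, -0.92 (SE 0.52, edgeR adjusted p = 0.30). Nras had an edgeR adjusted p of 0.029 at -1.85 without replicate 4, a fit that called 2217 genes. The fitted differences of Egfr, Hras, Map2k1 and Mapk3 were -0.26, 0.15, 0.21 and -0.25, each smaller than its SE (0.30, 0.41, 0.29 and 0.60). With library sizes outside ribosomal RNA, where the median of all genes was 0.72, they were 0.40, 0.81, 0.89 and 0.39, with edgeR adjusted p = 0.32, 0.14, 0.053 and 0.62.

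In TPM, 3 of the 7 genes did not overlap between the sets, all higher in set B. Of the genes past the filter, 33.3% were higher and 5.91% lower without overlap, and on that base, which leaves out Dusp6, the count is 2 of 6. Map2k1 had 3.57, 3.71 and 3.38 TPM in set B against 1.99, 2.41 and 2.20 TPM in set A. Braf had 1.02, 1.81 and 1.48 TPM in set B against 0.699, 0.523 and 0.654 TPM in set A. Dusp6 had 1.41, 1.04 and 0.843 TPM in set B against 0.504, 0.675 and 0.170 TPM in set A. The other 4 genes overlapped between the sets. In TPM scaled outside ribosomal RNA, a comparison added after seeing the data, Egfr and Hras did not overlap either, which makes 5 of 7, or 4 of 6 past the filter, where 62.5% of genes were higher and 1.15% lower in set B. Egfr then had 3.30 to 4.87 TPM in set B and 1.91 to 3.29 TPM in set A, and Hras 4.36 to 6.26 TPM in set B and 1.70 to 3.42 TPM in set A. After background subtraction Map2k1 and Braf overlapped as well, their values in replicate 5 being 0.494 and 0.407 TPM, and only Dusp6 did not, at 0.804 to 1.40 TPM in set B and 0.157 to 0.666 TPM in set A. On that scale 9.2% of genes past the filter were higher and 9.39% lower in set B without overlap, against 0 of the 6 genes past it.

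Several measures of the libraries moved with the sets. Ribosomal RNA took 59.9% to 60.9% of counts in set B and 38.1% to 46.8% in set A. Background was 53.4 to 347 counts per Mb in set B and 24.9 to 39.4 in set A. The 6 acinar markers summed to 64632 to 94549 TPM in set B and 153375 to 165152 TPM in set A. Nearly all of this sum came from Ctrb1, Pnlip and Cpa1, with means over the 6 libraries of 84806, 19714 and 16143 TPM. Ptf1a, Rbpjl and Bhlha15 averaged 11.6, 24.8 and 32.0 TPM, so the sum says little about them. The 6 proliferation markers, none at 0 in all libraries, summed to 7.27 to 8.83 TPM in set B and 1.55 to 2.55 TPM in set A. The 8 islet markers, of which Iapp was listed at 0, summed to 38 to 2224 TPM in set B and 9.09 to 39.4 TPM in set A. The 8 ductal markers overlapped, at 56.9 to 184 TPM in set B and 74.8 to 109 TPM in set A. The 10 stromal and endothelial markers summed to 5.33 to 16.2 TPM in set B and 1.48 to 14.3 TPM in set A, and the 7 immune markers to 2.74 to 12.9 TPM in set B and 2.71 to 3.41 TPM in set A. Their part in the values of the 7 genes was not tested, and in sorted bulk samples fewer cells of a type and less RNA per cell cannot be told apart.

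Across the 6 libraries, the protein-coding genes whose log2(CPM + 1) was most like that of each gene were ranked among 5734 others with a mean of 20 counts or more, as a description. Braf was closest to Trim56 (Pearson r = 0.995) and to Vegfa, the gene of a vascular growth factor (0.994). Map2k1 was closest to Ppig (0.989) and Gata6, an acinar transcription factor gene (0.982), and Hras to Ankhd1 (0.987) and Jpt1 (0.978). Egfr had no neighbour above 0.897, reached by Kansl1l, with Pcif1 at 0.895. Nras, Mapk3 and Dusp6 had under 20 counts on average and were not ranked. Library depth, background and the share of ribosomal RNA are shared by all points, and the highest of 5734 correlations over 6 libraries is high by selection. Among the ranked genes of the 7, Braf and Map2k1 had an r of 0.660 and Egfr and Hras one of -0.576.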

How the data were processed

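Each deposited file holds raw counts per gene symbol for 1 library, not normalized, per the file headers; beside them stands a deposited length, other than a measurement, which is the whole span, introns included, of each of the 55253 symbols that have 1 interval. Trim Galore 0.6.4, FastQC, STAR 2.7.9a, SAMtools, featureCounts and build mm10 are named in the submitters' processing notes. Annotation release, strand setting and treatment of reads with several alignments are not given in the sources used here. Libraries were made by Smart-seq2 with 12 preamplification cycles, per the labels' protocols, which also record the molecule as genomic DNA.

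Exon lengths came from GENCODE M21 (55141 symbols). TPM was scaled to all genes with ribosomal RNA, and log2 values used a pseudocount of 1. Expected background was the density over genes named Olfr times the gene's span. Of 1610 protein-coding genes with 95% or more of their exons inside other genes, 88.7% had no counts, against 9.3% of 14262 free of overlap. Pairs were tested within libraries by the exact sign-flip test over 64 patterns. Set B was compared with set A over all genes by the quasi-likelihood test of edgeR 4.0.16, after filterByExpr and TMM, at an adjusted p of 0.05, with DESeq2 1.42.0 as an alternative, in R 4.3.3, and other values with Python 3.11.15, scipy 1.17.1, pandas 2.3.3 and numpy 2.4.6. The alternative with library sizes outside ribosomal RNA used no TMM factors. The tests were tested on simulated data. Genes named were the 7, their relatives in the 13 pairs, the 3 highest and the lowest of each role list and the 2 most alike of each gene with 20 counts or more on average; genes named among the 11 over background were chosen after their values were seen. Some relatives that enter the lists and the 34 pairs are not reported here. The members and lists were chosen with earlier results of these data known.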

Additional observations from a re-analysis of the deposited data

Results flagged for a closer look

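In 47 values checked over the 6 libraries, 4 had a replicate whose gap to the next library took up an unusual share of the whole range, and all 4 were replicate 5. Chance alone flags about 1 in 20 such groups. Background over olfactory receptor genes was 347 counts per Mb in replicate 5, with the next library at 118. TPM of Erbb4 was 12.1 in replicate 5, with the next library at 2.78. The difference of log2(TPM + 1) in replicate 5 was 0.62 for Braf minus Mapk3, where the next library had -0.70, and -2.16 for Egfr minus Erbb4, where the next had -0.16. Background was also highest in replicate 5, and its part in the other values was not tested.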

How the results depend on the processing

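The limits are few counts per gene, background that grows with gene span, and 6 libraries, which allow no exact p under 0.031 (0.062 with 1 left out, so those fits say nothing about the pairs). The number of the 7 genes over background was 1 at 5 times background, and 2 to 7 with 1 library left out, 7 being without replicate 5; it stayed at 2 or 3 at 2 times background, with vomeronasal receptors added, and, in alternatives chosen after seeing the data, with overlapped bases left out and without replicates 4 and 6. For the 71 pathway genes it was 21 at 2 times, 7 at 5 times and 11 to 38 with 1 library left out. The share of all protein-coding genes was 18% at 2 times, 6.73% at 5 times and 11.5% to 31% with 1 library left out. Genes called between the sets numbered 1 in the edgeR fit, 715 with DESeq2 (512 higher in set B, 203 lower), 993 with no filter (790 higher, 203 lower), 1824 with library sizes outside ribosomal RNA (1783 higher, 41 lower), and 0 to 2217 with 1 library left out (735 without replicate 5, 2217 without replicate 4). Library sizes outside ribosomal RNA were used without TMM factors, and the median of all genes was then 0.72 (0.67 with DESeq2 and 0.77 with no filter, against 0.02 in the edgeR fit). With those library sizes Braf was called at 1.38 (edgeR adjusted p = 0.045), Egfr was 0.40, Mapk3 0.39, Hras 0.81 and Map2k1 0.89. Hras and Map2k1 were -0.0854 and -0.0703 with no filter, and with 1 library left out Hras ran from -0.20 to 0.40, Map2k1 from -0.0335 to 0.30 and Mapk3 from -0.94 to 0.17. Of the 7 genes, 3 were higher in set B without overlap in TPM, 1 after background subtraction and 5 outside ribosomal RNA, the last pair of settings chosen after seeing the data. Among all genes past the filter the shares were 33.3%, 9.2% and 62.5%, beside 2, 0 and 4 of the 6 genes past it. The cause was not tested. Pairs with 1 direction in all libraries numbered 15 of 34 as counted, 11 after background subtraction and 21 by whole spans. None of the 34 pairs passed under any alternative. No paired analysis was possible because the labels number the replicates 1 to 6 within a single group.

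Signs of pair differences changed as follows. By whole spans Egfr minus Nras was -0.55, Egfr minus Dusp6 -0.57, Nras minus Braf 0.58, Nras minus Map2k1 0.52, Nras minus Dusp6 -0.021, Hras minus Map2k1 1.50, Hras minus Mapk3 0.63, Braf minus Dusp6 -0.60, Map2k1 minus Mapk3 -0.87, Map2k1 minus Dusp6 -0.55, Egfr minus Erbb3 -0.27, Egfr minus Erbb4 0.18, and Dusp6 minus Dusp7 0.21. With no length scaling Egfr minus Hras was 1.19, Egfr minus Map2k1 0.99, Egfr minus Mapk3 1.73, Hras minus Braf -0.59, Hras minus Mapk3 0.54, Braf minus Map2k1 0.39 and Braf minus Mapk3 1.13. Hras minus Mapk3 was 0.016 outside ribosomal RNA, 0.0032 outside enzymes too and 0.0198 with a pseudocount of 0.1, and Egfr minus Erbb4 0.021 and 0.015 in the last pair of settings. After background subtraction Nras minus Braf was 0.10, Hras minus Map2k1 0.0857, Hras minus Mapk3 0.0518, Braf minus Dusp6 -0.0149, Map2k1 minus Mapk3 -0.0339 and Egfr minus Erbb4 0.97. With 1 library left out, Nras minus Dusp6 ran from -0.0735 to 0.22, Hras minus Mapk3 from -0.15 to 0.11, Dusp6 minus Dusp7 from -0.14 to 0.0388, Egfr minus Erbb4 from -0.28 to 0.29 and Nras minus Braf from -0.21 to 0.0729.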
